A study of Mus musculus with 38 samples.

Results

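The genes described here are 36 genes whose protein products build, fill, dock, fuse and recycle synaptic vesicles. They were chosen by symbol from a fixed list, out of the 48709 genes counted in each library. No measured value was a criterion, but the list was set with earlier results of these data known. All 36 were found under a single Ensembl identifier each, and all 36 passed the filter on low counts in every comparison. RNA came from dissected hippocampal tissue of 38 C57BL/6 mice, and 1 library was made per mouse. The pre-plaque group was 6 months old and held WT mice on placebo (4) or on anle138b (4) and APPPS1ΔE9 mice on placebo (4) or on anle138b (4). The post-plaque group was 10 months old and held WT mice on placebo (5) or on anle138b (5) and APPPS1ΔE9 mice on placebo (5) or on anle138b (7). APPPS1ΔE9 mice, written APPdelta9 in the labels, carry a mutant App transgene among their transgenes, which in this line are driven by the prion protein promoter. Anle138b is a diphenylpyrazole compound that was given in the food, and placebo-treated mice received food without it. The study asked whether the compound changed hippocampal gene expression in this amyloid model, and 8 comparisons of 2 groups and 3 tests of differences between such comparisons follow from its design.

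Each library held 15847985 to 31895808 counted reads, and the member with the fewest reads in any mouse, Syn3, still had 107. The genotype was read from the titles, since 1 label of the 4 pre-plaque WT libraries on placebo names the transgenic genotype while their titles say wt. App in those 4 libraries was 1624 to 1796 CPM (counts per 1000000 reads of the library after TMM normalization), against 3848 to 4318 in placebo-treated APPPS1ΔE9 mice of the same cohort. App was 1506 to 1809 CPM in all other WT libraries and 3228 to 4149 in all other APPPS1ΔE9 libraries. Xist and the Y-linked genes split the mice into 12 with Xist and 26 without, and 11 of the 12 were WT, so sex and genotype were largely confounded. The study describes all its mice as male, which the 12 libraries with Xist do not match. WT and APPPS1ΔE9 libraries of the same cohort and treatment shared no sequencing lane, so lane and genotype cannot be told apart in the direct comparisons, and the same holds for lane and anle138b in the pre-plaque APPPS1ΔE9 mice. Choroid plexus markers (6 genes, among them Ttr, the transthyretin gene of that epithelium) separated the pre-plaque libraries into 6 with a summed level of 256 to 1234 CPM and 10 with 5977 to 11497 CPM. The 6 were 3 placebo-treated APPPS1ΔE9 mice and 1 mouse of each other pre-plaque group. They were mice 71, 74, 75, 77, 83 and 84, while the 10 others had numbers from 15 to 41. Choroid plexus markers and mouse number therefore cannot be told apart in the pre-plaque libraries. Markers of dentate granule cells (6 genes) separated the 22 post-plaque libraries into 9 at 216 to 356 CPM and 13 at 466 to 779.8 CPM, with 2 or 3 of the 9 in each group.

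Neurotransmitter is packed into synaptic vesicles, which dock at the active zone of the presynaptic membrane, are primed there, and fuse when calcium enters the terminal. Fusion is driven by the SNARE proteins on the vesicle and the plasma membrane, triggered by synaptotagmins, and followed by disassembly of the SNARE complex and endocytosis of the vesicle membrane. In the hippocampus most of these terminals release glutamate. The RNA measured here came from tissue and not from sorted cells, and fewer cells of a type and less RNA per cell cannot be told apart in it.

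The levels of the 36 genes were compared per length of their exons, as CPM per kb, in the 4 pre-plaque WT mice on placebo. They spanned 514-fold. Snap25, the SNARE of the plasma membrane that is anchored by lipid, was highest at 378 ± 36.5 CPM per kb (SD, n = 4), and Syn3, the least abundant synapsin, was lowest at 0.734 ± 0.0706 (SD, n = 4). In all, 16 genes were at or above 100 CPM per kb, 16 between 10 and 100, and 4 under 10. Of the 35 pairs of neighbours in this order, 21 had overlapping mice and 14 did not, so much of the order between neighbours lay within the spread of the mice.

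Among the proteins of the vesicle membrane, Syp (synaptophysin) was at 157 ± 7.96 CPM per kb, Sv2a at 118 ± 4.68, Syngr1 (synaptogyrin 1) at 111 ± 9.2, Syngr3 at 69.7 ± 3.19, Sv2b at 68.6 ± 8.95 and Synpr (synaptoporin) at 18.9 ± 1.43. Sv2a and Sv2b are transporter-like glycoproteins of the vesicle, and Sv2a exceeded Sv2b per length in every 1 of the 38 mice, by 1.09 to 2.64 times. The synapsins, which tether vesicles into the reserve pool, were at 111 ± 8.07 for Syn1, 111 ± 11.8 for Syn2 and far lower for Syn3. Syn1 and Syn2 did not differ beyond their spread. Slc17a7, the vesicular glutamate transporter VGLUT1, was at 222 ± 23.4.

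The synaptotagmins include the calcium sensors of release. Syt1, the fast sensor of forebrain synapses, was at 194 ± 13.5 CPM per kb and Syt11, which binds no calcium, at 189.8 ± 11.3. Syt7, the slow sensor, was at 43.1 ± 2.31, Syt4 at 41.5 ± 3.46 and Syt2, the fast sensor of brainstem and some interneuron terminals, at 4.21 ± 0.579. Syt1 exceeded Syt2 per length by 32.9 to 100.3 times over the 38 mice. Among the SNAREs, Vamp2 (synaptobrevin 2) was at 230.5 ± 17.7, Stx1a (syntaxin 1A) at 38.9 ± 2.67 and Vamp1 at 15.5 ± 1.51. The complexins, which bind the assembled SNAREs and hold them until calcium arrives, were at 351 ± 29.5 for Cplx2 and 292 ± 17.6 for Cplx1. Nsf, the ATPase that takes the SNARE complex apart, was at 162 ± 12.1, and its adaptors Napb (beta-SNAP) and Napa (alpha-SNAP) were at 101 ± 13.5 and 62.7 ± 3.08.

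Rab3a, the GTPase that links vesicles to the active zone, was at 202 ± 12.7 CPM per kb and its relative Rab3b at 13 ± 0.296. The genes of the active zone were lower. Unc13a and Unc13b encode the priming factors Munc13-1 and Munc13-2, and were at 31 ± 2.72 and 3.2 ± 0.0997. Bsn (bassoon) and Pclo (piccolo), the large scaffold proteins, were at 26.1 ± 2.03 and 14.6 ± 0.907. Rims1 and Rims2, which bind Rab3 and recruit calcium channels, were at 24.3 ± 1.61 and 5.34 ± 0.436. Of the genes of vesicle endocytosis, Dnm1 (dynamin 1, the fission GTPase) was at 238 ± 19.6, Amph (amphiphysin) at 71.3 ± 6.55, Synj1 (synaptojanin 1, a lipid phosphatase that uncoats vesicles) at 70.9 ± 4.82 and Snap91 (the clathrin adaptor AP180) at 42.5 ± 2.18. The plot of levels by role shows Snap25 and the complexins at the top, Stx1a and Vamp1 far below them, and the active zone genes between 3.2 and 31 CPM per kb.

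**Figure D1:**
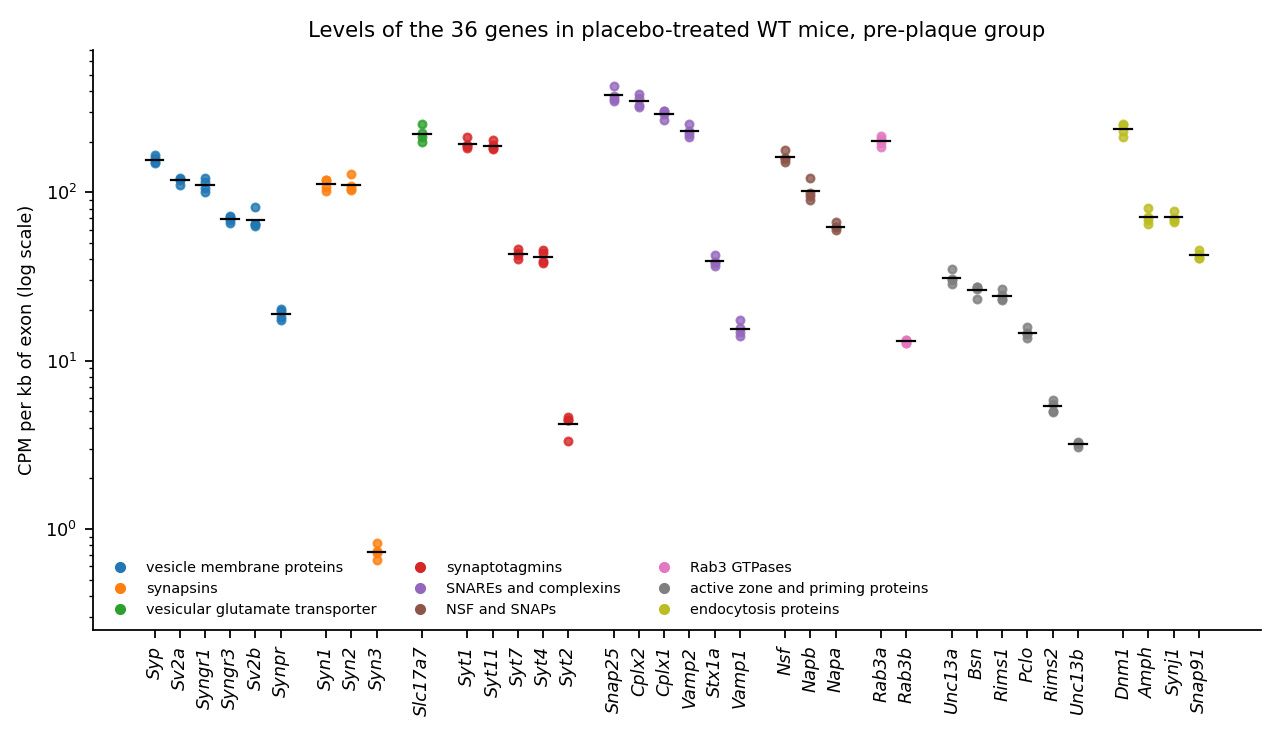
Levels of the 36 genes in the 4 pre-plaque WT mice on placebo, as CPM per kb of exon on a log scale, grouped by role. Points are mice and black lines are means. Snap25 was highest at 378 and Syn3 lowest at 0.734 CPM per kb.

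RefSeq promoter windows of GRCm38.p6, reaching from 250 bases before to 50 bases after the start, were held for 29 of the 36 genes, in 38 windows. The other 7 were Syngr3, Vamp2, Syt7, Rims2, Syt4, Snap25 and Syn3. Short motifs were searched as exact letters on both strands and compared with all 32851 windows of the table. The GC box letters GGGCGG stood in 63.2% of the members' windows and in 35.7% of all windows, and covered 23 genes. The E-box letters CACGTG stood in 10.5% of the members' windows (Napa, Nsf, Sv2b and Unc13b) and 7.15% of all. The TATA letters TATAAA stood in 7.89% (Rab3b and Sv2b) and 13.6% of all. The cyclic AMP response element TGACGTCA stood in 5.26% (Napa and Syn1) and 1.79% of all. The left part of the RE1 site bound by the neuronal gene repressor REST, TTCAGCACC, stood in 5.26% (Syn1 and Unc13a) and 0.371% of all, and the right part, GGACAGCG, in 2.63% (Unc13a) and 1.26% of all. None of these matches is a measured binding site. Those shown are the windows of 3 active zone genes whose levels are described most fully and that of Syn1, which holds both the CRE and the left RE1 letters. Capitals mark the motif letters on either strand, and no 2 matches overlap. Rims1 has 3 GC boxes, Unc13b has 1 E-box and 4 GC boxes, Bsn has none of the 6 motifs, and Syn1 has 1 left part of RE1 and 1 CRE.
Rims1, chr1:22806109-22806408, minus strand: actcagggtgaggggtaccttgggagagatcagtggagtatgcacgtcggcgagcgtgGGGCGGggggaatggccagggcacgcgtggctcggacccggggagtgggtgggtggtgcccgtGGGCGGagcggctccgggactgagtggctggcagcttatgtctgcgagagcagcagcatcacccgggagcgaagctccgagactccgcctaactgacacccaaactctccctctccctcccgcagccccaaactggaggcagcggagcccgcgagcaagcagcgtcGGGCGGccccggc
Unc13b, chr4:43058703-43059002, plus strand: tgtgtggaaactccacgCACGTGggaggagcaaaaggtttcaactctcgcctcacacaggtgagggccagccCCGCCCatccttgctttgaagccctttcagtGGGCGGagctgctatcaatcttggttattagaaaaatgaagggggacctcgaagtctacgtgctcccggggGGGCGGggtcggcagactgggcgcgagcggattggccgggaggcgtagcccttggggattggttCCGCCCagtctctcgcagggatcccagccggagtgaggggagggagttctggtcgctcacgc
Bsn, chr9:108190334-108190633, minus strand: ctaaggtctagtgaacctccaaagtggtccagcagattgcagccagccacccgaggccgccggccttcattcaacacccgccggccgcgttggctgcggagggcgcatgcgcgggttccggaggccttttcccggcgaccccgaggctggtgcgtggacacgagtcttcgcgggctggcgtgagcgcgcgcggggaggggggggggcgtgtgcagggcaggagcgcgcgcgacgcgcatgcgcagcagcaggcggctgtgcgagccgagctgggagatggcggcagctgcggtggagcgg
Syn1, chrX:20920869-20921168, minus strand: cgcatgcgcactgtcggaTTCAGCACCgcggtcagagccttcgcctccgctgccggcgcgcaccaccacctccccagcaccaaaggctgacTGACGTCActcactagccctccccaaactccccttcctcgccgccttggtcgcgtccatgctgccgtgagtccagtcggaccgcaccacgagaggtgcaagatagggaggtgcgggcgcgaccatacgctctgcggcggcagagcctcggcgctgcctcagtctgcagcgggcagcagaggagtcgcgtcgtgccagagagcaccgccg

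Pre-plaque APPPS1ΔE9 mice on placebo were compared with placebo-treated WT mice to ask what the genotype changed at 6 months, in the cohort whose treatment began before plaques formed. Of the 36 genes, 32 had a higher and 4 a lower mean level in APPPS1ΔE9 mice, with a median log2 fold change of 0.10. Over all 16774 genes tested, 50.8% were higher and the median was 0.0023. No member passed an adjusted p of 0.1 in edgeR's quasi-likelihood test, the threshold used throughout, while 0.0715% of all genes did. At an unadjusted p under 0.05, 8 of 36 members and 11.1% of all genes passed, 7 of the 8 members higher and Synpr lower. This count was 17 without mouse 77 and 14 without mouse 17, 4 without mouse 30 or mouse 74, and 3 without mouse 31 or mouse 71. The share of all genes in these fits is not given here, so the counts do not show a change of the members alone. DESeq2, which called 0.468% of the genes it gave an adjusted p, called Rims1 alone among the members (adjusted p = 0.022). All DESeq2 shares given here are of such genes, 8219 to 34129 by comparison. They are not comparable with the shares of edgeR or with each other.

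Of the active zone genes, 6 of 6 were higher, with a median log2 fold change of 0.19. Rims1 was at 204, 209, 232 and 233 CPM in the placebo-treated APPPS1ΔE9 mice and at 169, 171, 179.6 and 195 CPM in the placebo-treated WT mice. All 4 APPPS1ΔE9 mice lay above all 4 WT mice. The log2 fold change of Rims1 was 0.29 ± 0.07 (SE), with an adjusted p of 0.28 in edgeR and a 95% interval of 0.15 to 0.44. Since the groups did not overlap, this order had to hold within any set of libraries. The values by choroid plexus markers are given as description only. Within the 6 libraries with low choroid plexus markers, the 3 APPPS1ΔE9 values (209 to 233 CPM) were above the single WT value (195 CPM). Within the other libraries, the single APPPS1ΔE9 value (204 CPM) was above the 3 WT values (169 to 179.6 CPM).

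Bsn was at 415, 496, 499.9 and 564 CPM in the APPPS1ΔE9 mice and at 369, 425, 436 and 437 CPM in the WT mice. The 3 high APPPS1ΔE9 values were the 3 libraries with low choroid plexus markers, and the fourth lay among the WT values. Its log2 fold change was 0.25 ± 0.09 (SE) and its edgeR adjusted p was 0.39. Pclo followed the same mice, at 328, 366, 374 and 447 CPM in APPPS1ΔE9 and 304, 322, 329.7 and 353 CPM in WT mice, with a log2 fold change of 0.21 ± 0.09 (SE). The groups overlapped for both scaffolds. Unc13b was at 75.7, 79.6, 82.3 and 90.8 CPM in APPPS1ΔE9 and 69.8, 72.6, 74.1 and 75 CPM in WT mice. Its groups did not overlap, and its log2 fold change was 0.17 ± 0.06 (SE) (edgeR adjusted p = 0.38). Rims2 was at 62 ± 3.19 against 55.5 ± 4.53 CPM (SD, n = 4 and 4) and Unc13a at 416 ± 38.3 against 391 ± 34.4.

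Synpr, a synaptophysin relative that is abundant in mossy fibre terminals, differed in the other direction. It was at 128, 139, 155 and 167 CPM in APPPS1ΔE9 and 164, 171, 187 and 192 CPM in WT mice, with 1 APPPS1ΔE9 value inside the WT range. Its log2 fold change was -0.28 ± 0.09 (SE), with an edgeR adjusted p of 0.36. The other 3 genes with a lower mean were Syt2 (-0.14), Vamp1 (-0.04) and Syt4 (-0.03). Synj1 and Slc17a7 had log2 fold changes of 0.17 ± 0.07 (SE) and 0.20 ± 0.09 (SE), and Rab3b, at 0.11, was the third gene with groups that did not overlap, or 3 of 36 members against 6.07% of all genes tested. The SNAREs and complexins had a median of 0.05.

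Other cell type markers were shifted in the same comparison, although edgeR called no gene of their lists in it. DESeq2 called 2 of the microglia markers in it, Trem2 and Csf1r. Interneuron markers had a median log2 fold change of -0.08 (7 of 8 lower) and endothelial markers 0.11 (5 of 6 higher). Oligodendrocyte precursor markers were at -0.03 (4 of 5 lower). The median log2 fold change was 0.16 for the CA pyramidal markers (6 of 8 higher), 0.19 for the microglia markers (6 of 8 higher) and 0.05 for the pan-neuronal markers (9 of 10 higher). It was -0.15 for the oligodendrocyte markers (8 of 8 lower), -0.17 for the astrocyte markers (6 of 8 lower), -0.38 for the thalamus markers (7 of 7 lower), -0.15 for the dentate granule markers (5 of 6 lower) and -1.24 for the choroid plexus markers (6 of 6 lower), and the part of these cell types in the members' values was not tested. Low choroid plexus markers were found in 3 of the 4 APPPS1ΔE9 and 1 of the 4 WT mice. The summed level of the 36 genes was 22145 to 23455 CPM in the 6 pre-plaque libraries with low choroid plexus markers and 19666 to 20964 CPM in the 10 others, whatever their group. With the choroid plexus marker level as a covariate, a fit added after the data were seen, the median log2 fold change of the members was 0.04 and 23 of 36 were higher. In a fit of all 4 pre-plaque groups with lane as a term it was 0.01, with 20 higher. The lane term rested on the 4 WT mice on anle138b, 33 and 39 on lane 4 against 41 and 83 on lane 5. Mouse 83 was also the only mouse of that group with low choroid plexus markers, so lane was not adjusted for apart from these. Without mouse 17, the only placebo-treated APPPS1ΔE9 mouse with high choroid plexus markers, 2 members passed, Rims1 (log2 fold change 0.33, edgeR adjusted p = 0.056) and Bsn (0.32, edgeR adjusted p = 0.094), among 205 genes. With sex-linked expression as a covariate, the median was 0.11, and 1 of 36 members instead of 8 had an unadjusted p under 0.05, while the share of all genes fell from 11.1% to 3.03% (3 of the 4 WT mice and none of the APPPS1ΔE9 mice had Xist). The pan-neuronal markers (10 genes) were 4650 to 4870.0 CPM in the 6 libraries and 4222 to 4704 CPM in the others, so they also differed between the sets.

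**Figure D2:**
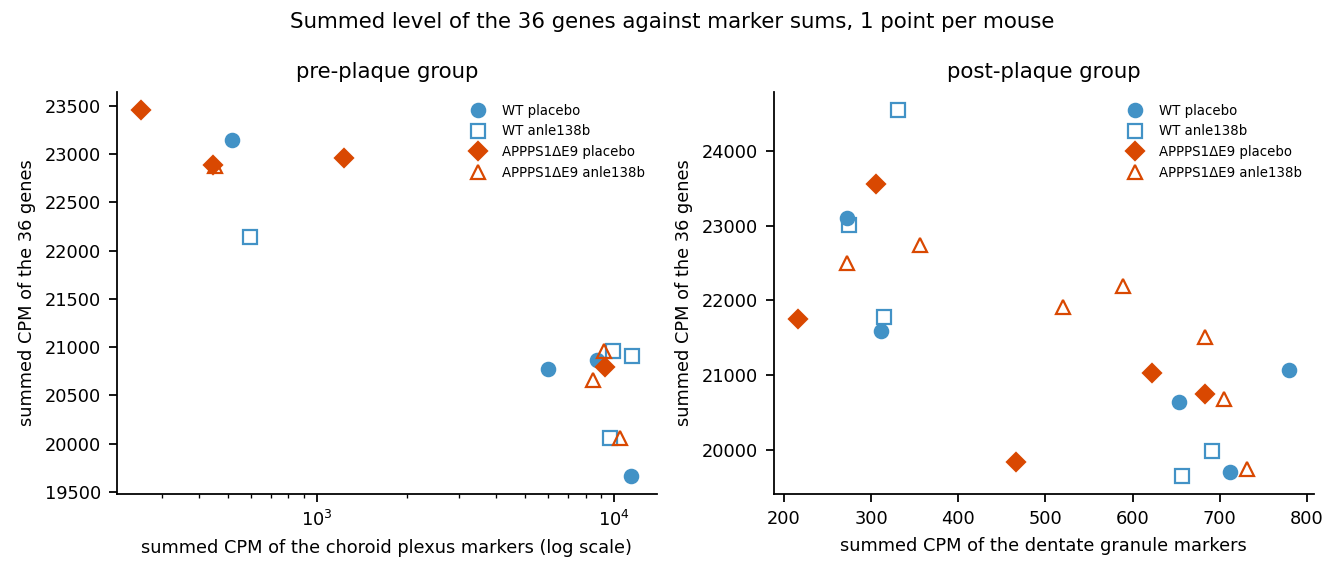
Summed CPM of the 36 genes (vertical axis, which does not start at 0) against the summed CPM of choroid plexus markers in the pre-plaque group (left, log scale) and of dentate granule markers in the post-plaque group (right), with 1 point per mouse and a symbol per group. In the pre-plaque group the 6 libraries with low choroid plexus markers sit at 22145 or more and the other 10 at 20964 or less.

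**Figure D3:**
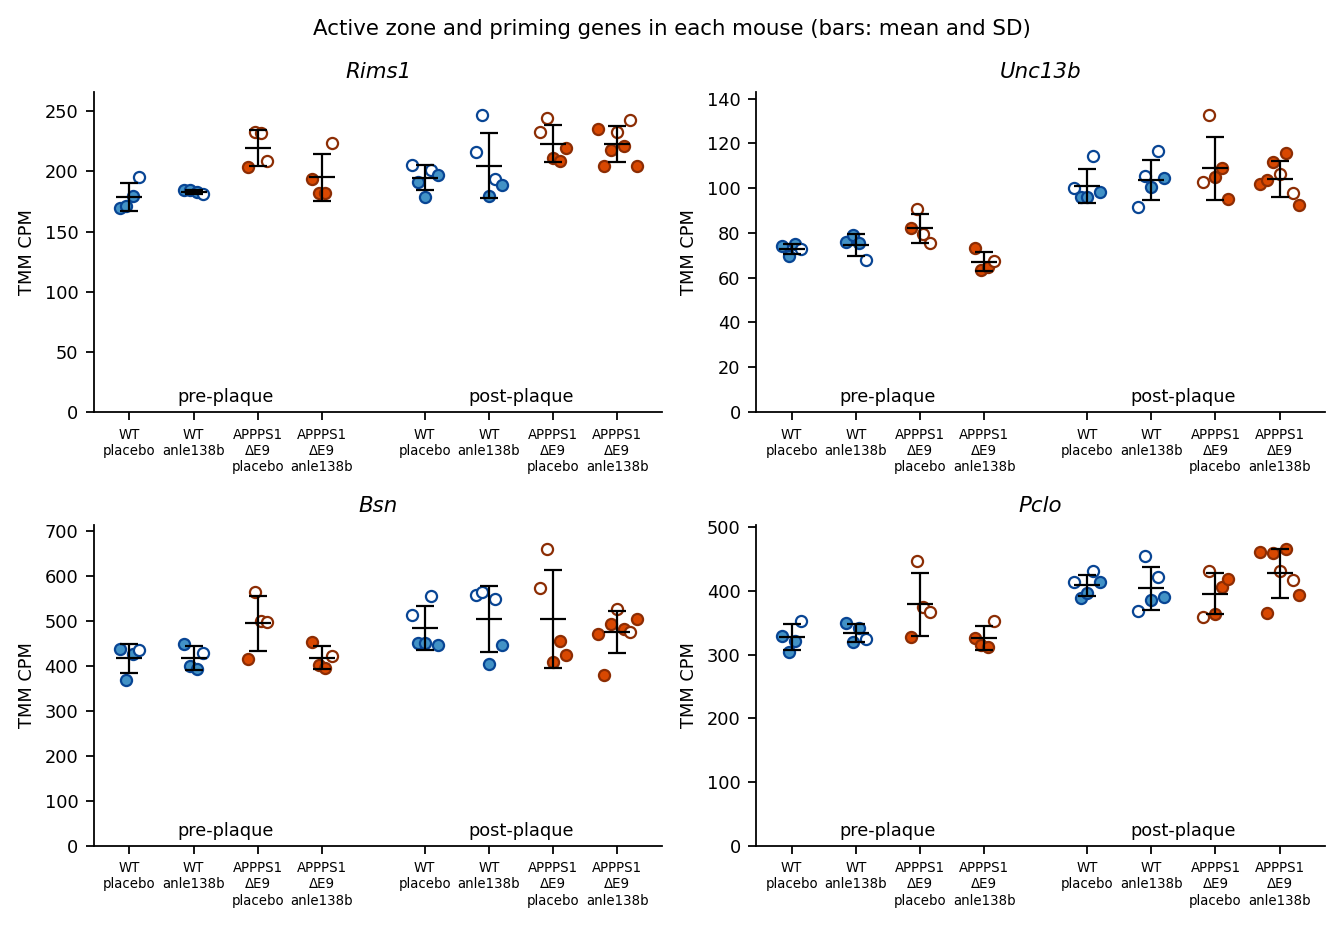
TMM-normalized CPM of Rims1, Unc13b, Bsn and Pclo in each of the 38 mice, by group, with mean and SD. Open circles are libraries with low choroid plexus markers (pre-plaque) or low dentate granule markers (post-plaque). For Rims1 the 4 pre-plaque APPPS1ΔE9 mice on placebo lie above the 4 placebo-treated WT mice, and the same holds for the 5 and 5 mice of the post-plaque group.

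The genotype comparison within the pre-plaque mice on anle138b had members on both sides of 0. Of the 36 genes, 19 were higher and 17 lower in APPPS1ΔE9 mice, with a median log2 fold change of 0.01, against -0.0044 over all 17033 genes tested. No member passed the threshold in edgeR, which called 0.047% of all genes, or in DESeq2, which called 0.156%. At an unadjusted p under 0.05, 4 of 36 members and 5.64% of all genes passed in edgeR. Syngr3 was at 145, 145, 159 and 162 CPM in APPPS1ΔE9 and 127, 140.0, 141 and 143 CPM in WT mice. The groups did not overlap, in a comparison where the share of all genes without overlap was not counted. The highest WT value lay just under the lowest APPPS1ΔE9 value. Its log2 fold change was 0.15 ± 0.06 (SE) (edgeR adjusted p = 0.84). Rims2 was at 56.5, 59.3, 61.4 and 66.5 CPM in APPPS1ΔE9 and 52.1, 53.1, 54.7 and 60 CPM in WT mice, with a log2 fold change of 0.15 ± 0.06 (SE) (edgeR adjusted p = 0.84) and overlapping groups. Syt4 was higher by 0.13 and Unc13b was at -0.15, so that Unc13b had opposite signs in the placebo-treated and anle138b-treated genotype comparisons. The intervals of all 36 genes lay within a log2 fold change of 0.5 in either direction.

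Anle138b was compared with placebo in APPPS1ΔE9 mice of the pre-plaque group, which share the placebo-treated APPPS1ΔE9 mice with the first comparison. The list leaned the other way here. Of the 36 genes, 31 were lower and 5 higher with anle138b, with a median log2 fold change of -0.10, while 49.4% of all 17009 genes tested were higher and their median was -0.0022. No member passed in edgeR, which called 0.0529% of all genes. At an unadjusted p under 0.05, 9 of 36 members and 13.1% of all genes passed, and all 9 members were lower. This count was 13 without mouse 17 or mouse 84, 2 without mouse 27 or mouse 71, 3 without mouse 16 and 5 without mouse 74. Again the share of all genes in these fits is not given, and the counts cannot be set against it. DESeq2, which called 1.32% of the genes it gave an adjusted p, called Unc13b alone (adjusted p = 0.027).

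Unc13b was at 63.3, 64.8, 67.4 and 73.3 CPM in anle138b-treated and 75.7, 79.6, 82.3 and 90.8 CPM in placebo-treated APPPS1ΔE9 mice, and every treated mouse lay below every placebo-treated mouse. Its log2 fold change was -0.29 ± 0.06 (SE), with an edgeR adjusted p of 0.25 and a 95% interval of -0.43 to -0.15. It was 67.4 CPM in the treated mouse with low choroid plexus markers and 63.3 to 73.3 CPM in the other 3, and 82.3 CPM in mouse 17 against 75.7 to 90.8 CPM in the other 3 placebo-treated mice. With choroid plexus markers as a covariate its log2 fold change was -0.28, with an edgeR adjusted p of 0.57. All 4 placebo-treated mice were sequenced on lane 5 and all 4 treated mice on lane 6, so lane and anle138b cannot be told apart here and no fit with lane as a term was possible. Unc13a, its relative, also had groups that did not overlap, at 369 ± 19.4 and 416 ± 38.3 CPM (SD, n = 4 and 4). Its log2 fold change was -0.17 ± 0.07 (SE) (edgeR adjusted p = 0.34). The share of all genes without overlap was not counted for this comparison, so the separation of neither gene can be set against it.

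Bsn was at 395, 402, 422 and 452 CPM in treated and 415, 496, 499.9 and 564 CPM in placebo-treated APPPS1ΔE9 mice. Its groups overlapped through mouse 17 alone, the lowest placebo-treated mouse, and its log2 fold change was -0.24 ± 0.08 (SE) (edgeR adjusted p = 0.32). Pclo (-0.22), Rims1 (-0.17), Dnm1 (-0.18), Synj1 (-0.16), Amph (-0.14) and Snap91 (-0.12) were the others with an unadjusted p under 0.05. The active zone genes had a median of -0.19 with 6 of 6 lower, and the 4 endocytosis genes a median of -0.15 with 4 of 4 lower. The 5 genes with a higher mean were Synpr, Syt2, Rab3b, Syt4 and Syngr3, at 0.02 to 0.10. Low choroid plexus markers were found in 3 of the 4 placebo-treated and 1 of the 4 treated mice. With these markers as a covariate the members' median was -0.04 and 11 of 36 were higher. With dentate granule markers as a covariate, 5 members passed in edgeR, Unc13b (-0.33), Bsn (-0.29), Pclo (-0.28), Unc13a (-0.23) and Syt7 (-0.19), among 793 genes. Without mouse 17, 1 member passed, Bsn (-0.31, edgeR adjusted p = 0.060), among 317 genes. All 8 mice of this comparison lacked Xist. The median without 1 treated mouse, number 27, was -0.06.

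In WT mice of the pre-plaque group, anle138b and placebo gave members centred on 0. Of the 36 genes 17 were higher and 19 lower, and the median log2 fold change was -0.0027, against 0.00091 over all 16766 genes tested. None passed in edgeR, which called 0% of all genes, and none at an unadjusted p under 0.05, which 1.85% of all genes had. DESeq2 called no member and 0.00644% of the genes it gave an adjusted p. The 2 members with the smallest p were Syt4 and Vamp1. Syt4 was at 139.6, 143, 156 and 161 CPM in treated and 147, 153, 169 and 176 CPM in placebo-treated mice (-0.10 ± 0.07 (SE), edgeR adjusted p = 1.0). Vamp1 was at 136, 148, 149.8 and 157 and 142, 151, 159 and 178 CPM (-0.09 ± 0.07 (SE), edgeR adjusted p = 1.0). Both pairs of groups overlapped. The intervals of all 36 genes lay within 0.5 on the log2 scale, the widest being that of Syt2 at -0.31 to 0.26. Each of these groups had 1 library with low choroid plexus markers.

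The difference between the genotype effects under anle138b and under placebo was tested as an interaction over the 4 pre-plaque groups. It was negative for 29 of 36 members, with a median of -0.07 on the log2 scale, and -0.0018 over all 17404 genes tested. None of the 36 passed in edgeR, which called 0% of all genes, or in DESeq2, which called 0.341% of the 8219 genes it gave an adjusted p. At an unadjusted p under 0.05, 4 of 36 members and 7.99% of all genes passed in edgeR. Unc13b had the largest difference, -0.31 ± 0.09 (SE) (edgeR adjusted p = 0.53). The 4 group means behind it were 72.9 ± 2.27 CPM in placebo-treated WT, 74.6 ± 4.78 in anle138b-treated WT, 82.1 ± 6.41 in placebo-treated APPPS1ΔE9 and 67.2 ± 4.41 in anle138b-treated APPPS1ΔE9 mice (SD, n = 4 each). Pclo was next, at -0.24 ± 0.10 (SE) (edgeR adjusted p = 0.62), from means of 327 ± 20.4, 334 ± 13.8, 379 ± 49.6 and 327 ± 18.6 CPM in the same order. Synj1 (-0.18) and Rims1 (-0.19) were the other 2. With choroid plexus markers as a covariate the members' median was -0.02.

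**Figure D4:**
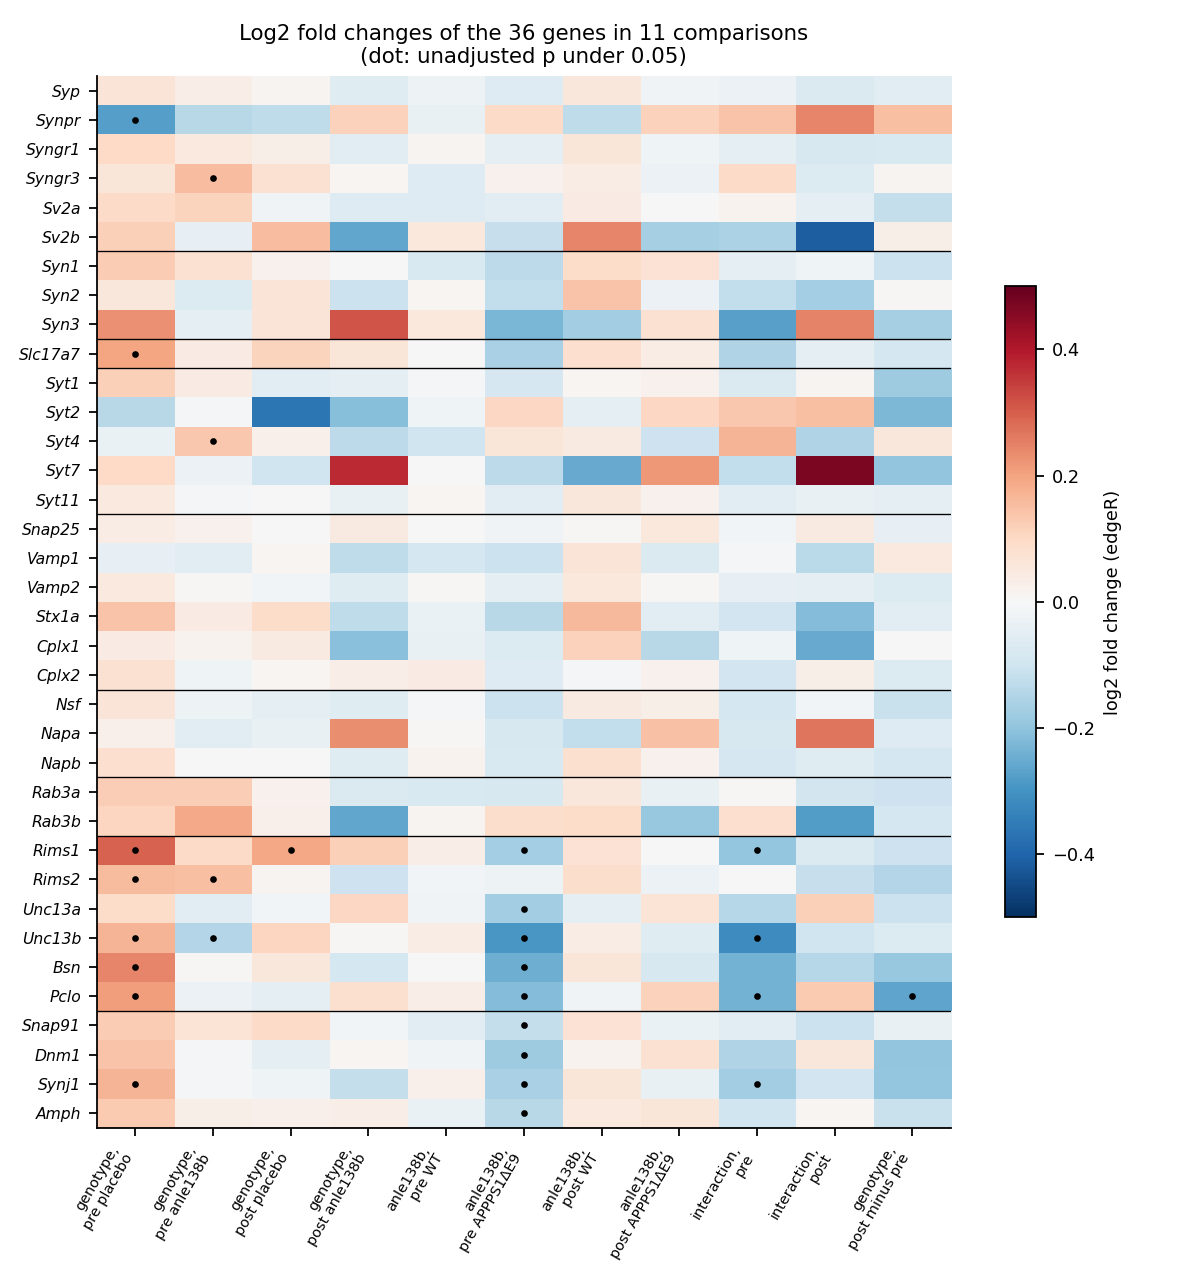
Log2 fold changes of the 36 genes (vertical axis, grouped by role) in the 8 comparisons of 2 groups and the 3 tests of differences (horizontal axis), with red for higher and blue for lower values and a dot at an unadjusted edgeR p under 0.05. The first column is mostly red and the sixth mostly blue, with 32 and 5 of 36 genes higher, and no gene passed an adjusted p of 0.1 in any column. Columns 1 and 6 share the placebo-treated APPPS1ΔE9 mice.

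In the post-plaque group, placebo-treated APPPS1ΔE9 and WT mice were compared to ask what the genotype changed at 10 months. Of the 36 genes, 24 were higher and 12 lower in APPPS1ΔE9 mice, with a median log2 fold change of 0.01, against -0.0025 over all 16971 genes tested. No member passed in edgeR, which called 0.324% of all genes, or in DESeq2, which called 0.599%. At an unadjusted p under 0.05, 1 of 36 members and 4.1% of all genes passed in edgeR.

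That member was Rims1. It was at 209, 211, 219, 233 and 244 CPM in APPPS1ΔE9 and 179, 192, 197, 201 and 205 CPM in WT mice, and all 5 APPPS1ΔE9 mice lay above all 5 WT mice. Its log2 fold change was 0.19 ± 0.06 (SE), with an edgeR adjusted p of 0.63 and a 95% interval of 0.06 to 0.32. The share of all genes without overlap was not counted in this comparison. Since the groups did not overlap, the order had to hold within any set of libraries. The values by dentate granule markers are given as description only. In the libraries low in these markers, 2 APPPS1ΔE9 mice were at 233 and 244 CPM and 2 WT mice at 201 and 205 CPM. In the others, 3 APPPS1ΔE9 mice were at 209 to 219 CPM and 3 WT mice at 179 to 197 CPM. Syt2 had the next smallest p. It was at 16.5, 17.7, 25, 26.4 and 26.7 CPM in APPPS1ΔE9 and 19, 22.7, 27.8, 33 and 41.1 CPM in WT mice, with a log2 fold change of -0.36 ± 0.22 (SE) (edgeR adjusted p = 1.0). The groups overlapped, and with sex-linked expression as a covariate its sign turned, to 0.09. The direction of the members as a whole was not stable. Their median was -0.07 with choroid plexus markers as a covariate (8 of 36 higher) and -0.03 with dentate granule markers (14 higher), and it was also under 0 without mouse 53, 57 or 86 (-0.01, -0.0050 and -0.02).

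Within anle138b-treated mice of the post-plaque group, 14 of 36 members were higher and 22 lower in APPPS1ΔE9 than in WT mice, with a median log2 fold change of -0.05, against -0.0025 over all 17151 genes tested. No member passed in edgeR, which called 0.723% of all genes, none at an unadjusted p under 0.05, which 5.78% of all genes had, and none in DESeq2, which called 0.892%. With dentate granule markers as a covariate the median turned to 0.03, with 25 of 36 higher. With sex-linked expression as a covariate it was -0.11, and 8 of 36 members and 15.5% of all genes had an unadjusted p under 0.05. Napa was at 197 at the lowest, 290.2 at the median and 344 at the highest CPM in the 7 APPPS1ΔE9 mice and at 189, 205, 221, 272 and 287 CPM in the 5 WT mice, with overlapping groups and a log2 fold change of 0.23 ± 0.14 (SE) (edgeR adjusted p = 0.84). Low dentate granule markers were found in 2 of those 7 and 3 of those 5 mice. Over the whole post-plaque group, Napa was 184 to 236 CPM in the 9 libraries low in these markers and 248 to 344 CPM in the 13 others. Rims1 was at 204 at the lowest, 221 at the median and 243 at the highest CPM in APPPS1ΔE9 and at 179, 189, 193, 216 and 247 CPM in WT mice, with a log2 fold change of 0.12 ± 0.08 (SE) (edgeR adjusted p = 0.84). Its groups overlapped through 2 WT mice at 216 and 247 CPM. Rims1 had a positive log2 fold change in all 4 genotype comparisons, as had Amph, Slc17a7, Snap25 and Syngr3, and Syt2 a negative one in all 4. The share of all genes with the same sign in all 4 was not counted, so these signs are description only.

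Anle138b and placebo were then compared in the post-plaque group. In WT mice, 28 of 36 members were higher and 8 lower with anle138b, with a median log2 fold change of 0.05, against 0.00029 over all 16986 genes tested. None of them passed in edgeR or DESeq2, which called 0% and 0% of all genes, and none had an unadjusted p under 0.05 in edgeR, which 1.25% of all genes had. Synpr was at 127, 130.1, 132, 151 and 151 CPM in treated and 122, 149, 155, 157 and 172 CPM in placebo-treated mice (-0.13 ± 0.09 (SE), edgeR adjusted p = 1.0). Syn1 was at 354, 378, 416, 454 and 454 and 352, 369, 371, 392 and 447 CPM (0.09 ± 0.09 (SE), edgeR adjusted p = 1.0). Both overlapped. With choroid plexus markers as a covariate the members' median was -0.06, so its sign was not stable.

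In APPPS1ΔE9 mice of the post-plaque group, 18 of 36 members were higher and 18 lower with anle138b, with a median log2 fold change of 0.0019, against 0.0038 over all 17110 genes tested. Again none passed in edgeR or DESeq2, which called 0% and 0% of all genes, and none had an unadjusted p under 0.05 in edgeR, which 1.48% of all genes had. With dentate granule markers as a covariate 31 of 36 were higher and the median was 0.04. Pclo was at 365 at the lowest, 432 at the median and 466 at the highest CPM in the 7 treated mice and 359, 364, 407, 419 and 431 CPM in the 5 placebo-treated mice (0.11 ± 0.07 (SE), edgeR adjusted p = 1.0). Dnm1 was at 1352 at the lowest, 1442 at the median and 1555 at the highest CPM and 1289, 1397, 1400.4, 1401 and 1467 CPM (0.07 ± 0.05 (SE), edgeR adjusted p = 1.0). The treated and placebo-treated mice overlapped for both. The active zone genes that were lower with anle138b in the pre-plaque APPPS1ΔE9 mice were at -0.06 for Unc13b, with a 95% interval of -0.23 to 0.11, and -0.08 for Bsn, with an interval of -0.34 to 0.18.

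The post-plaque interaction of genotype and anle138b was positive for 12 and negative for 24 members, with a median of -0.05, against 0.0022 over all 17668 genes tested. No gene of the list passed in edgeR, which called 0% of all genes, or in DESeq2, which called 0.00586% of the genes it gave an adjusted p. None had an unadjusted p under 0.05 in edgeR, which 2.3% of all genes had. With dentate granule markers as a covariate 26 of 36 were positive and the median was 0.03. The smallest p were those of Synpr, at 0.24 ± 0.14 (SE) (edgeR adjusted p = 0.99), and Pclo, at 0.13 ± 0.10 (SE) (edgeR adjusted p = 0.99). Synpr had means of 151 ± 18.3 CPM in placebo-treated WT (SD, n = 5), 138 ± 11.6 in anle138b-treated WT (n = 5), 139 ± 22 in placebo-treated APPPS1ΔE9 (n = 5) and 150.0 ± 15.4 in anle138b-treated APPPS1ΔE9 mice (n = 7). The estimates farthest from 0 were those of Syt7, at 0.47, and Sv2b, at -0.41, and their intervals were wide, at -0.43 to 1.37 and -1.21 to 0.39.

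Both of those genes differed among post-plaque mice of the same group. Sv2b was 611 to 857 CPM in the 9 libraries low in dentate granule markers and 318 to 516 CPM in the 13 others. Syt7 was 270.1 to 375 CPM in the 9 and 511 to 666 CPM in the 13. In all, 11 members were higher in each of the 9 than in any of the 13 (Syn2, Syp, Syngr1, Syt4, Sv2a, Sv2b, Vamp1, Stx1a, Cplx1, Rims2 and Synj1) and 4 were lower (Syn3, Syt7, Unc13a and Napa). Of all genes tested, 5.05% were higher and 4.97% lower in the 9 without overlap. The other 21 overlapped. This split ran through every post-plaque group, and the oligodendrocyte markers (8 genes) moved with it, at 2489 to 4084 CPM in the 9 and 5369.8 or more in the 13. The pan-neuronal markers were higher in the 9, at 4662 to 5177 CPM against 3671 to 4386 CPM, so higher levels there were not particular to the members. The CA pyramidal markers leaned the other way, at 585 to 693 CPM in the 9 and 664 to 853 CPM in the 13. In the pre-plaque group the libraries low in choroid plexus markers were higher without overlap for 6 members (Syt1, Syt11, Sv2b, Nsf, Amph and Slc17a7) and lower for none, while 0.937% of all genes tested were higher and 3.29% lower without overlap. These splits are descriptions of libraries, not groups of the study, and their part in the comparisons was not tested beyond the fits with marker covariates. Over all 38 mice, 30 members varied less than 2-fold between the lowest and the highest mouse, and Syn3, Syt2, Sv2b, Rab3b, Syt7 and Unc13b varied by 2.09 to 3.62 times.

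**Figure D5:**
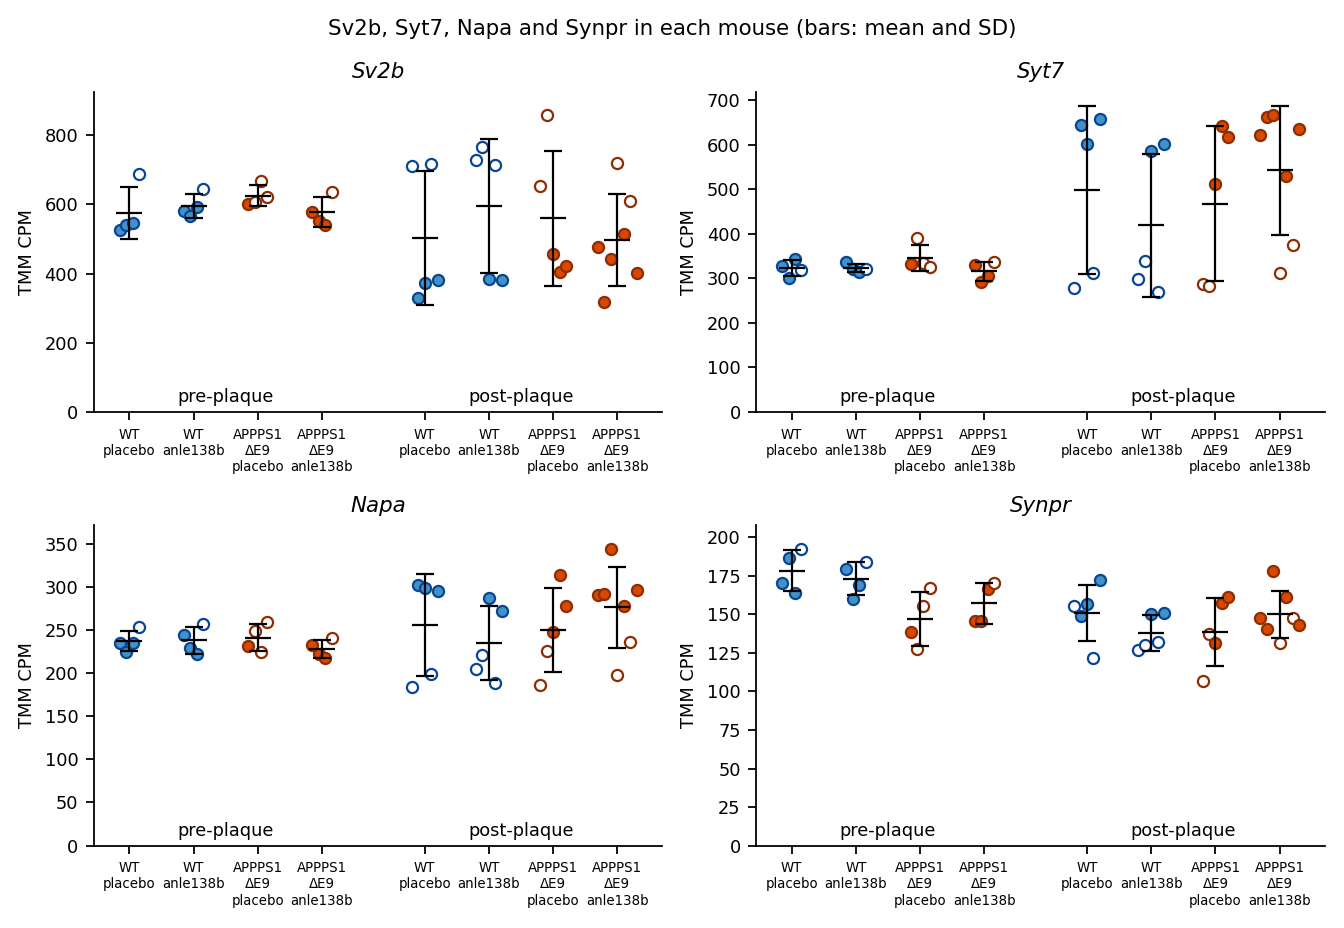
TMM-normalized CPM of Sv2b, Syt7, Napa and Synpr in each of the 38 mice, by group, with mean and SD. Open circles are libraries with low choroid plexus markers (pre-plaque) or low dentate granule markers (post-plaque). In every post-plaque group the open circles lie above the filled ones for Sv2b and below them for Syt7 and Napa.

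The genotype effect in placebo-treated mice was compared between the cohorts, post-plaque minus pre-plaque. It was lower in the post-plaque group for 30 of 36 members, with a median difference of -0.09 on the log2 scale, against -0.0067 over all 17681 genes tested. The test called no member in edgeR, which called 0% of all genes, or in DESeq2, which called 0.0951% of the genes it gave an adjusted p. At an unadjusted p under 0.05, 1 of 36 members and 6.16% of all genes passed in edgeR. Pclo was that member, at -0.26 ± 0.11 (SE) (edgeR adjusted p = 0.79), from a genotype effect of 0.21 at 6 months and -0.05 at 10 months. Dnm1 was next, at -0.20 ± 0.09 (SE) (edgeR adjusted p = 0.81), from 0.14 and -0.05. Rims1 differed between the cohorts by -0.11, with a 95% interval of -0.29 to 0.08. With choroid plexus markers as a covariate the median difference was -0.03. Age coincides with cohort, so a change with age cannot be told apart from other differences between the cohorts.

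The remaining members are covered by their ranges. Snap25 and Vamp2, the SNAREs that form the release complex, had log2 fold changes between -0.06 and 0.05 in all 8 comparisons of 2 groups. Syp, Syngr1 and Syt11 stayed between -0.06 and 0.10, and Cplx2, Nsf and Napb between -0.11 and 0.08. Syt1, Rab3a, Sv2a, Snap91 and Stx1a ranged from -0.14 to 0.16, and Syn2 from -0.12 to 0.14. Cplx1 and Rab3b reached -0.21 and -0.26 in the anle138b-treated genotype comparison of the post-plaque group. Syn3 had log2 fold changes of 0.23 and -0.23 in the first pre-plaque comparison and in the anle138b comparison of APPPS1ΔE9 mice, with wide intervals (-0.03 to 0.49 and -0.48 to 0.03).

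Among 57 other genes of the vesicle cycle, 56 were found and 55 were tested in each comparison. They include the liprins, the clathrin chains and the transporters Slc17a6 and Slc32a1. None passed an adjusted p of 0.1 in edgeR in any of the 11 comparisons, where 32 of 605 tests had an unadjusted p under 0.05. Over all genes, 1.25% to 13.1% had such a p, depending on the comparison, and the comparisons share mice. DESeq2 called 1, the synaptotagmin Syt17, with an edgeR log2 fold change of -0.29 for anle138b in the pre-plaque APPPS1ΔE9 mice. In the placebo-treated pre-plaque genotype comparison 35 of 55 were higher, with a median log2 fold change of 0.04, and at an unadjusted p under 0.05 4 were higher and 1 lower. In pre-plaque APPPS1ΔE9 mice 34 of 55 were lower with anle138b, with a median of -0.06, and at an unadjusted p under 0.05 4 were higher and 6 lower. Of the marker lists, the microglia markers (8 genes) were the only 1 with members that passed in edgeR. Among them, Trem2 was higher in placebo-treated APPPS1ΔE9 than WT mice of the post-plaque group, and Cx3cr1, Trem2 and Csf1r in the anle138b-treated ones. No gene of the 11 other lists (pan-neuronal, CA pyramidal, dentate granule, interneuron, thalamus, astrocyte, oligodendrocyte, oligodendrocyte precursor, endothelial, choroid plexus and pituitary markers) passed in edgeR in any comparison, where 71 of 825 tests had an unadjusted p under 0.05. Again, 1.25% to 13.1% of all genes had such a p, depending on the comparison. DESeq2 made 10 calls among these lists, of the genes Pou3f1, Grik4, Sst, Gfap, Gja1, Prl and Pomc. Among the microglia markers it made 9 calls over the 11 comparisons.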

How the data were processed

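Hippocampal RNA of 38 mice was sequenced as TruSeq mRNA libraries. The authors aligned reads to mm10 with STAR and assigned them to genes with HTSeq, and the deposited files hold raw counts per gene, with no normalization. The annotation release and strand setting are not given in the sources used here, so overlapping antisense genes cannot be told apart. Groups came from the titles.

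Symbols, exon lengths and GC content came from GENCODE M21 (48349 of 48709 genes matched). For each comparison, genes passing filterByExpr (minimum count 10, minimum total 15) were TMM normalized and tested with edgeR 4.0.16 (glmQLFit, robust, and glmQLFTest) in R 4.3.3, with only the groups compared. Interactions were fitted over 4 groups. P-values were adjusted by Benjamini-Hochberg over all genes tested, with a threshold of 0.1, and measure the spread between mice. Standard errors were derived from each fold change and its F statistic. CPM was normalized over all 38 libraries. The test was also run on simulated counts with known changes. Alternatives were DESeq2 1.42.0, RLE size factors, no filter, a threshold of 0.05, sex-linked expression, offsets for gene length and GC content (mgcv 1.9.3), the replicate number as a block, all groups of a cohort in 1 fit, lane, marker covariates, and leaving out single mice. No 2 libraries of a group were duplicates, since the counts of all 75 pairs within groups differed by more than sampling noise (chi-square over its degrees of freedom of 2.99 to 59.6).

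The members, lists and tests were chosen with earlier results of these data known. Values per mouse are given for members called in a comparison and, where fewer than 2 were called, for the 2 with the smallest p. Other genes given with values per mouse were chosen after their values were seen. Values of some genes on the lists are not reported here.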

Additional observations from a re-analysis of the deposited data

Results flagged for a closer look

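In each of the 8 groups, the mouse farthest from the others was compared with the spread of its group for every one of the 36 genes. In 14 of 288 such groups of values (4.86%) a single mouse stood apart, which is close to the 1 in 20 that chance gives, so the list is given as values only. CPM values are TMM normalized.

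In the pre-plaque group, mouse 77 (WT, placebo) had Syt2 at 25.61 CPM, below 33.75 to 35.23 CPM in the other 3, and Sv2b at 686.4 CPM, above 525.6 to 545.1 CPM. It was the placebo-treated WT mouse with low choroid plexus markers. Bsn in mouse 31 of the same group was 368.5 CPM, below 425.1 to 436.6 CPM. Among the placebo-treated APPPS1ΔE9 mice, mouse 71 had Syt7 at 390.2 CPM and Unc13a at 473.9 CPM, above the other 3 at 324.6 to 335.5 and at 396 to 398.7 CPM. Mouse 17, the 1 of that group with high choroid plexus markers, had Syt11 at 962.2 CPM and Cplx1 at 599.6 CPM, below the other 3 at 1037 to 1043 and at 675.9 to 682.9 CPM. Among the anle138b-treated APPPS1ΔE9 mice, mouse 84 had Syt11 at 1048 CPM, above 958.8 to 967.1 CPM.

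In the post-plaque group, mouse 59 (APPPS1ΔE9, anle138b) had Syn1 at 347.5 CPM and Bsn at 379.8 CPM, below the other 6 mice at 408.5 to 446 and at 469.4 to 525.7 CPM. Syn3 in mouse 93 of the same group was 24.19 CPM, above 6.721 to 14.13 CPM. Of the placebo-treated APPPS1ΔE9 mice, mouse 86 had Snap25 at 2768 CPM, above 2396 to 2446 CPM, and mouse 57 had Rab3a at 493.7 CPM, above 387 to 417.4 CPM. Unc13b in mouse 55 (WT, placebo) was 114.4 CPM, above 95.94 to 99.99 CPM.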

How the results depend on the processing

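EdgeR called none of the 36 genes in any of the 11 comparisons, at an adjusted p of 0.1 or of 0.05, and the counts at an unadjusted p and by DESeq2 stand beside each comparison. Calls appeared in 2 comparisons only. For the genotype in pre-plaque mice on placebo, DESeq2 called 1 gene and the test without a filter 1 (Rims1 in both), and leaving out single mice gave 0 to 2, the 2 without mouse 17. For anle138b in pre-plaque APPPS1ΔE9 mice, DESeq2 called 1 gene and the test without a filter 1 (Unc13b in both), the covariate of dentate granule markers gave 5, and leaving out single mice gave 0 to 1, the 1 again without mouse 17. The cause of these added calls was not tested. The members' median log2 fold change moved by more than the spread between mice in 3 fits, to 0.0112 with lane as a term in the first of these comparisons, to 0.107 with sex-linked expression as a covariate for the genotype in post-plaque mice on placebo, and to -0.0643 with choroid plexus markers as a covariate for anle138b in post-plaque WT mice. Of the named genes, Syt2 turned to 0.092 in the second of these fits and Syn1 to -0.00396 in the third. Both marker covariates were chosen after seeing the data. Over all settings, mice left out included, 3 to 205 of all genes passed for the genotype in pre-plaque mice on placebo, 3 to 793 for anle138b in pre-plaque APPPS1ΔE9 mice and 0 to 78 for anle138b in pre-plaque WT mice. The sex covariate could be fitted only where a comparison held mice with and without Xist, and the lane term in 4 comparisons. In the pre-plaque group the lane term rested on the 4 WT mice on anle138b alone. The median standard error of a member was 0.059 to 0.145 on the log2 scale. Rims1 at 0.29 ± 0.07 and Unc13b at -0.29 ± 0.06 did not pass in edgeR, so changes of several standard errors could go uncalled.

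The running numbers of the titles were not used to pair the mice in the main test. In none of the 8 comparisons of 2 groups did every pair of the same number correlate above 0.1 in its deviations from the group means. This rule cannot exclude pairing. The mean correlation ran from -0.27 for anle138b in post-plaque APPPS1ΔE9 mice to 0.36 for anle138b in post-plaque WT mice. With the replicate block, 0 members passed in each of the 11 comparisons, so it changed no call of a member.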
